A study of Mus musculus with 32 samples.

Results

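Late mouse epidermal organoids were set against the sorted epidermis of the same study, 9 of its 32 libraries. The late organoids (6 libraries, replicates 1 to 6) were bulk cells of Bl/6 skin organoids at passages 23 to 30, taken 7 days after the last passage within 6 months of culture, in medium holding forskolin, which raises cyclic AMP, and the growth factor Fgf1. The epidermis (3 libraries, replicates 1 to 3) was interfollicular epidermis of Bl/6 mice, sorted for the surface proteins Itga6 and Sca1 with no culture. The labels give no age or sex, and do not say whether the libraries of a group came from separate animals or cultures, so the p-values measure the spread between these libraries, which may be technical. Itga6 and Ly6a, the gene of Sca1, chose the epidermal cells, so their difference from the epidermis is not described. Epidermis and organoids differ at once in sorting, in culture and in medium, and these cannot be told apart here.

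The interfollicular epidermis renews itself from a basal layer that carries keratins 5 and 14 and sits on a basement membrane. Cells that leave this layer switch to keratins 1 and 10 and then to the proteins of the cornified envelope. The lipids of the skin barrier, cholesterol among them, are made by the keratinocytes themselves. Cells sense sterols through 2 opposed programmes: SREBP factors, active when sterols are low, drive cholesterol synthesis and uptake, and LXR receptors, active when oxysterols are high, drive cholesterol export, Apoe among their targets.

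Counts per gene were scaled to CPM, counts per 1000000 counts of a library, and groups were compared with edgeR's quasi-likelihood test, with p-values adjusted over all 10843 genes tested. A gene is called here where the adjusted p is under 0.05. Differences are log2 of late organoids over epidermis, so 1 is a 2-fold change. Total counts ran from 469839 to 739531 per epidermis library and from 412582 to 3127190 per late library. Genes of ribosomal proteins took 23.5 to 27.1% of counts in the epidermis and 13.1 to 18.8% in the late organoids, and their part in the results was not tested.

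The 4 genes that mark the comparison separated the groups without overlap. Like the gene lists, they were chosen with earlier results of these data known. Of all 10843 genes tested, 2266 (20.9%) had no overlap of CPM between the groups. Apoe, an apolipoprotein that carries lipids out of cells, stood at 13762, 9950 and 10336 CPM in the 3 epidermis libraries and at 3.05, 8.87 and 11.7 CPM (lowest, median and highest) in the 6 late libraries. Its difference was -10.34 ± 0.50 (log2, SE; adjusted p = 6.97e-10). Krt15, a keratin of basal cells, was at 7787, 8169 and 7296 CPM in the epidermis and between 3.89 and 581 CPM (median 71.2) in late organoids, a difference of -5.21 ± 1.03 (adjusted p = 0.00167). Pitx1, a homeobox factor best known from the hindlimb and the mouth, had no count in any epidermis library and 123 to 772 CPM (median 435) in late organoids, at least 351.1-fold higher than the level of 3 counts over the 3 epidermis libraries (adjusted p = 4.17e-05). Scd2, a desaturase that puts a double bond into fatty acids, rose from 14.2, 11.6 and 5.64 CPM to between 456 and 801 CPM (median 623), a difference of 5.88 ± 0.48 (adjusted p = 3.14e-07).

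Both groups carried the defining markers of basal keratinocytes. Krt5 ranged from 7559 to 15163 CPM (median 9386) in late organoids and was at 6959, 6378 and 9393 CPM in the epidermis. Krt14 ranged from 3342 to 15677 CPM (median 7067) against 4895, 6032 and 6039 CPM. The ranges overlapped for both keratins and neither was called, with intervals of the difference from -0.53 to 1.53 for Krt5 and from -0.54 to 1.67 for Krt14 (95%, log2). Trp63, the master regulator of stratified epithelia, was at 29.5 to 66.3 CPM (median 47.9) against 125.8, 86.7 and 81.7 CPM and missed the threshold (-1.05 ± 0.42, adjusted p = 0.082).

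Markers of cells that live in the epidermis beside keratinocytes moved with the groups. The 17 markers of Langerhans and myeloid cells summed to 320 to 549 CPM in the epidermis and to 18.1 to 162 CPM in late organoids. The defining markers Cd207, Tyrobp, Fcer1g and Csf1r had no count in any late library. T cell markers summed to 61.3 to 106 CPM against 0 to 4.54 CPM, with Cd3d, Cd3e, Cd3g and Cd247 at 0 in all late libraries. In bulk RNA, fewer cells of a type and less RNA per cell cannot be told apart. Fibroblast markers ran the other way, at 62.9 to 107 CPM in the epidermis and 210 to 913 CPM in late organoids, where Sparc made up most of the sum in all libraries but replicate 4, which held 399 CPM of Dcn, a proteoglycan of connective tissue, against at most 5.78 CPM in the others. Lum, Pdgfrb, Dpt and Mfap5 of that list were at 0 in every late library. Melanocyte markers summed to at most 19.7 CPM and endothelial and erythrocyte markers to at most 9.59 CPM in any of these libraries.

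The late libraries were not alike. Some files list exactly the same genes and others do not; libraries whose files list the same genes are said here to share a source table. Late replicates 1 and 2 shared a table, replicates 4 and 5 shared another, and replicates 3 and 6 each stood in one of their own; no table held both organoids and epidermis. Replicates 1 and 2 had the lowest summed level of the layer genes described further on (1044 and 1098 CPM, against 6014 to 44937 CPM in the other 4) and the highest of mitotic genes, so results that rest on either group of genes are given by table. Replicate 4 was the lowest late library for 21 of 23 glycolysis genes. Over the 5422 genes of at least median level, the SD of log2 CPM had a median of 0.605 among the late libraries and 0.298 among the epidermis libraries.

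Of the 10843 genes tested, 2360 were called (21.8%), 1327 higher in late organoids (12.2%) and 1033 lower (9.53%). The counts given below for each gene list are to be read against these shares. The median difference over all tested genes was 0.04. Of the called genes, 1078 (9.94% of genes tested) also passed a test for a change of more than 2-fold, 605 of them higher. The count leaned on the few epidermis libraries: without epidermis replicate 1, 2 or 3 it was 1406, 1296 and 1528. Calls of 1054 genes (555 higher, 499 lower) held with the same sign in each of the 9 fits that left out 1 library, and such a call is named below as one that held. With the 2 groups fitted alone, 1377 of 7341 genes were called, 1356 of them also called above in the same direction. In 216 genes called higher the epidermis had no count, and in 79 called lower the late organoids had none. At the other end, 1407 genes had a 95% interval within 1 log2 unit of no change, 1197 of them among the 5422 genes of at least median level. The intervals were derived from the fitted difference and its test statistic. A gene with no count in either group, as in 163 tested genes, gets an interval of no width. Such genes can enter these counts without having been measured, so the counts do not show them to be unchanged.

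**Figure D1:**
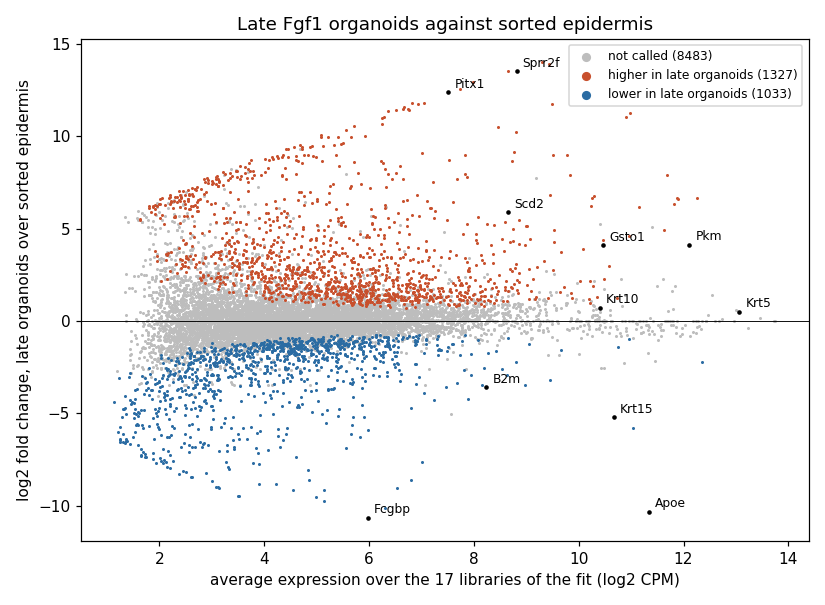
Log2 fold change of late organoids over sorted epidermis against the average log2 CPM over the 17 libraries of the fit, 1 point per gene tested, coloured by call, with 11 genes named. Apoe lies at -10.34 and Scd2 at 5.88 while Krt5 lies near 0; the highest and lowest points, such as Sprr2f and Fcgbp, have a group at or near 0 counts, where the fitted fold depends on the prior count.

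The gene with the largest fall among abundant, non-overlapping genes was Fcgbp, a secreted mucin-like protein that binds the Fc part of IgG. It had 363, 334 and 338 CPM in the epidermis and a single count, 0.259 CPM, in 1 of the 6 late libraries (adjusted p = 2.98e-08). Adh1, an alcohol dehydrogenase that oxidises retinol, had 89.6, 129 and 66.2 CPM in the epidermis and no count in late organoids, at least 241.4-fold lower (adjusted p = 8.72e-06). Other genes close to absence in the late libraries were Sult5a1, a sulfotransferase, Pkib, an inhibitor of protein kinase A, Cdh4, a cadherin, and Cttnbp2, a cortactin-binding protein. None of these 4 was above 1.45 CPM in any late library, against at least 28.3 CPM in each epidermis library. Bbox1, the last enzyme of carnitine synthesis, fell from 670, 754 and 585 CPM to between 0 and 11.3 CPM (-7.64 ± 0.79, adjusted p = 5.38e-06). Alox12e, an epidermal lipoxygenase, fell from 288, 247 and 296 CPM to between 0 and 12.5 CPM (-6.31 ± 0.67, adjusted p = 6.37e-06). Clca3a2 (a relative of chloride channel accessory proteins), Ackr4 (a receptor that takes up chemokines), Tppp3 (a tubulin-binding protein) and Oas1f (of the oligoadenylate synthetase family) fell by 6.88 to 9.05 on the log2 scale. The calls of all 15 leading genes that fell held.

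Among the 15 leading genes that rose were 4 of the Sprr2 family of cornified envelope precursors, whose close sequence similarity leaves the split of counts between members uncertain. Sprr2f had no count in the epidermis and 9.75 to 4781 CPM (median 303) in late organoids, at least 775.3-fold higher (adjusted p = 0.0083); without late replicate 5, which held the most, the bound was 199.8-fold. Psca, a GPI-anchored surface protein, was also at 0 in the epidermis and ran from 5.78 to 1111 CPM (median 125), at least 231.9-fold higher, or 108.5-fold without late replicate 3. Slpi, a secreted inhibitor of neutrophil proteases, ran from 11.7 to 6449 CPM (median 894) against 1.57, 0 and 0 CPM (adjusted p = 0.00193). The late libraries thus differed among themselves by more than 100-fold in these surface and secreted products. Steadier risers were Fhl2, a LIM-domain protein, at 35.2 to 119 CPM (median 85.3) with none in the epidermis (at least 65.4-fold higher, adjusted p = 9.33e-06), and Eya2, a transcriptional co-activator, at 19.3 to 216 CPM (median 67.0; at least 66.4-fold higher). Basp1, a membrane-bound cytoskeletal protein, reached at least 67.1-fold. Of the 15, Ppbp, a chemokine, and Ltf, lactoferrin, lost their calls without any 1 of the epidermis libraries (adjusted p = 0.058 to 0.081), and Sprr2g lost its call without epidermis replicate 2 (adjusted p = 0.053); the other 12 held.

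**Figure D2:**
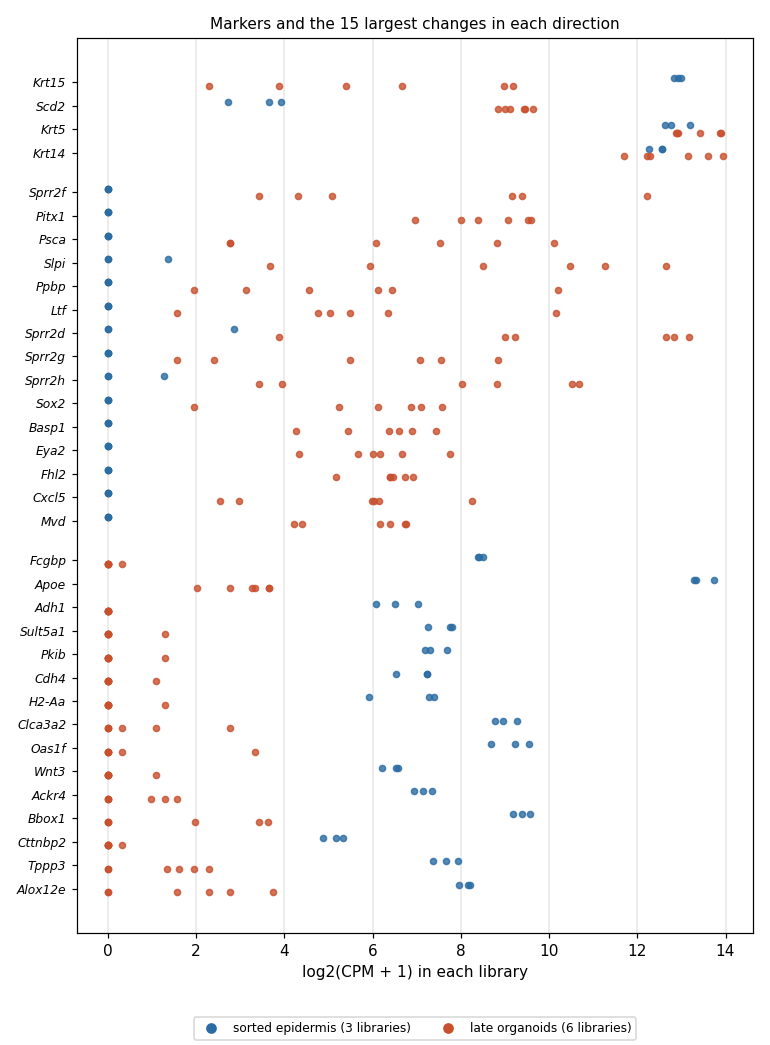
Log2(CPM + 1) in each of the 3 epidermis libraries (blue) and 6 late libraries (orange) for Krt15, Scd2, Krt5 and Krt14 and, below them, the 15 leading genes that rose and the 15 that fell. The 30 leading genes were chosen for having no overlap between the groups. The late libraries spread widely in the genes that rose. Krt5 and Krt14 overlap.

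Cholesterol synthesis rose almost throughout. Of its 20 enzymes 17 rose and none fell, with a median difference of 3.14 against 0.04 over all genes, and 15 of the 17 calls held. Hmgcs1 acts in the first steps of the pathway, Mvk, Pmvk and Mvd make isopentenyl diphosphate, Idi1, Fdps, Fdft1, Sqle and Lss build the sterol ring, and Cyp51, Msmo1 and Sc5d act in its last steps. The short windows before the start sites of most of these genes hold a motif, CCAAT, the box bound by the factor NF-Y, so 3 windows are shown for genes the results turn on. Each holds the 250 bases before the gene's start on the gene's own strand, 5′ to 3′, from RefSeq on GRCm38.p6, with CCAAT or its reverse complement in capitals. Mvd lies on the minus strand at chr8:122443423-122443672, Idi1 on the plus strand at chr13:8885356-8885605 and Msmo1 on the minus strand at chr8:64733579-64733828.
Mvd: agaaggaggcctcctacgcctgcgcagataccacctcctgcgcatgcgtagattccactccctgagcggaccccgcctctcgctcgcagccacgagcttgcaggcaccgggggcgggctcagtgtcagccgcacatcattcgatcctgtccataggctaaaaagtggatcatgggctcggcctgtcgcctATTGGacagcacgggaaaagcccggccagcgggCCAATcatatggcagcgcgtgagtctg
Idi1: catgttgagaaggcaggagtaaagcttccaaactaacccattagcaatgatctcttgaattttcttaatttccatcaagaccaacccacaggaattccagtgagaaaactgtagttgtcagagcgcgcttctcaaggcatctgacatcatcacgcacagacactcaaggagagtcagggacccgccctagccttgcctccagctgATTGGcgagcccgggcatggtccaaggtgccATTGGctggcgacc
Msmo1: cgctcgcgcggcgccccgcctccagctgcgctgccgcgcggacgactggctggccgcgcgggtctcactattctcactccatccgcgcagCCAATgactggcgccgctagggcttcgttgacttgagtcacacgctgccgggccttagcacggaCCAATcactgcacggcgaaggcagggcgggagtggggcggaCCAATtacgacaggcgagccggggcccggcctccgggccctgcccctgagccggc
The window of Mvd held 2 matches, that of Idi1 2 and that of Msmo1 3. CCAAT on either strand stood in 14 of the 15 cholesterol synthesis genes with a promoter in the table (93.3%), in 37.5% of all 27025 genes and in 40.3% of the 8284 tested genes with one. The 14 include Hmgcs1, Mvk and Ebp, which were not called higher. In the other lists searched the share ran from 37.5% (glycolysis) to 73.3% (circadian clock, a list in which more genes fell than rose). The sterol response element searched, TCACNCCAC, stood only in Hmgcs1 of these 15 (6.67%, against 1.22% of all genes). A match is a description of the window and not of a factor bound to it.

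Mvd, the enzyme that makes isopentenyl diphosphate, had no count in the epidermis and 17.5 to 107 CPM (median 77.1) in late organoids, at least 51.4-fold higher (adjusted p = 0.000134). Idi1, which isomerises that product, rose from 6.29, 15.9 and 25.4 CPM to between 70.2 and 340 CPM (median 105; 3.24 ± 0.62, adjusted p = 0.00126). Msmo1, which removes methyl groups from the sterol ring, rose from 26.7, 34.9 and 50.7 CPM to between 204 and 807 CPM (median 412; 3.57 ± 0.50, adjusted p = 8.09e-05). For these 3 genes the groups did not overlap. Sqle, which makes squalene epoxide, was at 42.9 to 121 CPM (median 99.4) against 1.57, 5.28 and 9.86 CPM (3.98 ± 0.48, adjusted p = 2.17e-05). Tm7sf2 and Dhcr7 missed the threshold when epidermis replicate 2 was left out (adjusted p = 0.066 and 0.091), and Dhcr7 also when epidermis replicate 1 was (0.083). The 3 genes not called were Hmgcs1 and Mvk, of the first steps, and Ebp, a sterol isomerase: Hmgcs1 was at 39.0 to 605 CPM (median 275) against 182, 225 and 225 CPM, and in late replicates 1 and 2 alone it lay below the epidermis (-1.92, adjusted p = 0.00308). By source table, 10 genes rose and 1 fell with late replicates 1 and 2 alone, and 18 rose and none fell with late replicates 4 and 5 alone.

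Genes of sterol uptake and of sterol export moved in opposite directions, with 8 of the 20 tested genes of this list higher and 6 lower (11 of the 14 calls held). Vldlr, a receptor for lipoproteins, rose from 0, 1.06 and 0 CPM to between 12.5 and 29.2 CPM (median 21.9; 5.35 ± 0.69, adjusted p = 3.90e-05). Srebf2, the factor that drives this programme, was at 13.0 to 34.0 CPM (median 28.7) against 0, 4.23 and 1.41 CPM (3.54 ± 0.64, adjusted p = 0.000826). Scarb1, an HDL receptor, and Stard4, a carrier of cholesterol inside the cell, rose by 4.69 and 2.35 (log2). The 6 genes that fell were Apoe, Apoc1, Abca1, Abcg1, Mylip and Npc1. Abca1, a pump that loads cholesterol onto lipoproteins, fell from 140, 120 and 123 CPM to between 1.53 and 42.9 CPM (median 6.39; -3.61 ± 0.55, adjusted p = 0.000193). Apoc1, a neighbour of Apoe in the genome, fell from 78.6, 204 and 90.2 CPM to between 0 and 8.68 CPM (median 2.52; -5.63 ± 0.64, adjusted p = 1.23e-05). Mylip, a ubiquitin ligase and a target of LXR, fell from 88.1, 99.3 and 114 CPM to between 7.80 and 56.7 CPM (-1.96 ± 0.49, adjusted p = 0.00797). Abcg1, another sterol pump, and Npc1, which moves cholesterol out of lysosomes, fell by 3.16 and 1.49 on the log2 scale. Of the calls that did not hold, that of Nr1h2, an LXR receptor, ended when epidermis replicate 2 was left out (adjusted p = 0.105).

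Fatty acid enzymes rose less uniformly: 12 of 27 were higher and none lower, with a median of 1.12, and 7 calls held (7, 7 and 9 were called without epidermis replicate 1, 2 or 3). With late replicates 1 and 2 alone 8 were higher and 5 lower, and with replicates 4 and 5 alone 12 were higher and none lower. Slc25a1, the carrier that brings citrate out of mitochondria, rose from 26.7, 11.6 and 11.3 CPM to between 118 and 365 CPM (median 282; 3.94 ± 0.47, adjusted p = 1.84e-05). Acly, which splits that citrate into acetyl-CoA, was at 66.3 to 270 CPM (median 131) against 39.3, 38.0 and 52.1 CPM (1.77 ± 0.39, adjusted p = 0.00371). Elovl5, an elongase of polyunsaturated fatty acids, was at 46.7 to 82.4 CPM (median 65.4) against 12.6, 12.7 and 7.05 CPM (2.56 ± 0.35, adjusted p = 7.02e-05). Acss2, Fads1 and Fads3, an acetyl-CoA synthetase and a pair of desaturases, rose by 3.78, 4.56 and 5.08 (log2). The desaturases Scd1 and Scd2 did not move alike. Scd1 was at 51.0 to 90.0 CPM (median 59.0) against 115, 83.5 and 56.4 CPM, an overlapping range, and was not called (-0.41, interval -1.08 to 0.26). Srebf1, the factor most tied to fatty acid genes, was at 19.8 to 35.1 CPM against 23.6, 24.3 and 32.4 CPM, with an interval from -0.60 to 0.70.

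**Figure D3:**
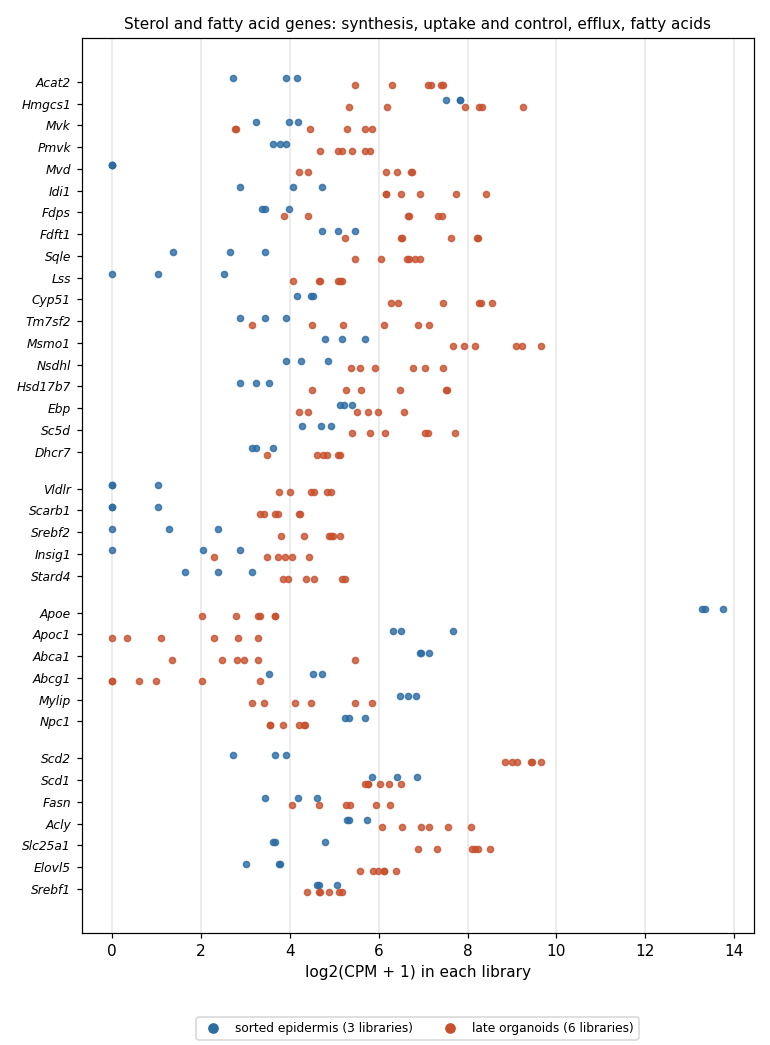
Log2(CPM + 1) in each epidermis library (blue) and late library (orange) for genes of cholesterol synthesis, uptake and control, export, and fatty acid synthesis, from top to bottom. Msmo1 and Sqle lie higher in every late library, Apoe, Apoc1 and Abca1 lower, and Scd1 and Srebf1 overlap.

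Of the 20 basal genes 4 rose and 5 fell (median 0.02), and 6 of these 9 calls held; 2 were higher without any 1 of the epidermis libraries. Late replicates 4 and 5 alone gave 1 higher and 6 lower, replicates 1 and 2 alone 5 of each. Dst, whose epithelial form anchors keratins at hemidesmosomes, fell from 1178, 1033 and 1267 CPM to between 44.2 and 205 CPM (median 107; -3.46 ± 0.45, adjusted p = 4.65e-05). Postn, a matrix protein, fell from 51.9, 65.5 and 64.8 CPM to between 0 and 14.7 CPM (-4.16 ± 0.74, adjusted p = 0.000753). Sparc, a matrix protein that binds collagen, rose from 51.9, 65.5 and 98.6 CPM to between 206 and 904 CPM (median 433; 2.73 ± 0.53, adjusted p = 0.00153), and Thbs1, another adhesive matrix protein, rose by 3.19 ± 0.77 (adjusted p = 0.00666). Col17a1, a collagen of hemidesmosomes, was at 411 to 1496 CPM (median 716) against 2414, 3092 and 1708 CPM; its call (adjusted p = 0.0289) was lost without late replicate 3 or 6 or epidermis replicate 1 or 2 (adjusted p = 0.052, 0.052, 0.078 and 0.128). The integrin chains Itgb1 and Itga3 were called higher (1.63 and 3.06), with ranges that overlapped, and lost that call without any 1 of the epidermis libraries (adjusted p = 0.075 to 0.121).

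The genes of hemidesmosomes and basement membrane were called in both directions as well, 3 of 23 higher and 5 lower (median 0.13), and 3 of the 8 calls held: Dst, Lamb1 and Frem2. Lamb1, a laminin chain, rose from 3.15, 1.06 and 5.64 CPM to between 34.0 and 115 CPM (median 70.4; 4.50 ± 0.85, adjusted p = 0.00118). Frem2, a basement membrane protein of the Fras1 complex, had 15.7, 20.1 and 12.7 CPM in the epidermis and no count in late organoids, at least 41.1-fold lower (adjusted p = 0.000309). The higher calls were 2, 1 and 1 without epidermis replicate 1, 2 or 3. Late replicates 1 and 2 alone gave 6 higher and 3 lower, and replicates 4 and 5 alone 1 higher and 6 lower. Of 26 junction genes 5 rose and 3 fell (median 0.62), and 4 of the calls held; the higher calls were 3, 2 and 4 without epidermis replicate 1, 2 or 3. Late replicates 1 and 2 alone gave 4 higher and 12 lower junction genes, and replicates 4 and 5 alone 7 higher and 3 lower. Dsc3, a desmosomal cadherin, fell from 601, 721 and 683 CPM to between 91.1 and 297 CPM (median 216; -1.76 ± 0.37, adjusted p = 0.00248). Dsg2, another, fell from 131, 124 and 95.8 CPM to between 10.7 and 57.8 CPM (median 17.6; -2.42 ± 0.47, adjusted p = 0.00153). Gja1, the gap junction protein connexin 43, rose from 153, 156 and 107 CPM to between 308 and 1033 CPM (median 583; 2.14 ± 0.42, adjusted p = 0.00159), and Cldn4, a tight junction claudin, rose by 5.76 ± 1.10 although late replicate 2, at 5.85 CPM, lay within the range of the epidermis. Dsp, the plakin of every desmosome, did not differ by more than 2-fold in either direction within its interval (-0.91 to 0.65).

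Transcription factors of the epidermis changed in both directions, with 8 of 31 higher, 5 lower and a median of 0.12; 9 of these calls held, and 5, 4 and 6 were called higher without epidermis replicate 1, 2 or 3. With late replicates 1 and 2 alone the counts were 7 higher and 12 lower, and with replicates 4 and 5 alone 10 higher and 5 lower. Gata3, which acts in barrier formation and in the hair's inner root sheath, fell from 986, 1076 and 923 CPM to between 44.8 and 270 CPM (median 117; -2.91 ± 0.44, adjusted p = 0.000182). Nfatc1, known from bulge stem cells, fell from 25.2, 23.2 and 28.2 CPM to between 1.13 and 2.07 CPM (-3.79 ± 0.42, adjusted p = 9.52e-06). Lhx2, a LIM homeobox factor of follicle stem cells, had 6.29, 3.17 and 24.0 CPM in the epidermis and no count in late organoids. Tfap2c and Ets2, an AP-2 and an ETS factor, fell by 1.55 and 1.43 on the log2 scale. The epithelial ETS factors Ehf and Elf3 rose. Ehf went from 1.57, 8.45 and 7.05 CPM to between 87.7 and 233 CPM (median 151; 4.72 ± 0.55, adjusted p = 1.60e-05). Elf3 went from 0, 1.06 and 0 CPM to between 17.5 and 591 CPM (median 88.9; adjusted p = 0.00119). Barx2 and Runx1, a homeobox and a runt factor, rose by 2.49 and 2.96 (log2). Sox9, a factor of the hair follicle bulge, was at 3382 and 2740 CPM in late replicates 1 and 2 and at 121 to 872 CPM in the other 4, against 64.5, 79.3 and 393 CPM; its call (adjusted p = 0.043) was lost without late replicate 1, 2 or 5 (adjusted p = 0.068, 0.062 and 0.052) or epidermis replicate 1 or 2 (0.163 and 0.166).

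Of 44 positional homeobox and T-box genes tested, 6 rose and 2 fell (median 0.44, or 0.19 with genes at 0 in a group held at their bound). That is near the share over all genes tested in the same fit, 12.2% higher and 9.53% lower. The filter of that fit can admit genes through follicles or early organoids alone. With the 2 groups fitted alone, 19 genes of the list were tested, 5 higher and 1 lower. Over all 7341 genes tested in that fit, 781 were higher and 596 lower. The 3 calls that held were Pitx1, Sox2 and Hoxc4. Sox2, a factor of sensory and dermal cells in skin and of squamous progenitors elsewhere, had no count in the epidermis and 2.89 to 188 CPM (median 92.5) in late organoids, at least 69.9-fold higher (adjusted p = 0.00253). Hoxc4 rose from 6.29, 8.45 and 5.64 CPM to between 26.1 and 70.9 CPM (median 42.8; 2.73 ± 0.57, adjusted p = 0.00243). Its neighbours in the cluster, Hoxc5 and Hoxc8, were called higher too, but the ranges overlapped through late replicate 4, and leaving out epidermis replicate 2 (adjusted p = 0.073 and 0.122) or 3 (0.063 and 0.089) ended both calls, and for Hoxc8 also without epidermis replicate 1 (0.138) or late replicate 1, 3 or 5 (0.057, 0.070 and 0.056). Meis2, a partner of Hox proteins, missed the threshold once epidermis replicate 2 or 3 was left out (adjusted p = 0.085 and 0.059). Hoxa7 and Irx2, called lower at adjusted p = 0.0493 and 0.0495, lost that call without any 1 of the epidermis libraries (adjusted p = 0.085 to 0.206) and in 4 and 5 of the 6 fits without a late library. Irx5, a relative of Irx2, had an interval from -0.63 to 0.87.

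Fgf1 is a component of the late medium. The list of its receptors and of feedback genes downstream of ERK also took in EGF receptors, their ligands and growth factor targets. It held 11 genes called higher and 3 lower of 25 tested (median 1.28). Of the 14 calls 9 held, with 7, 7 and 9 higher without epidermis replicate 1, 2 or 3. The EGF receptor ligands Hbegf, Tgfa, Areg, Ereg and Epgn were among the genes called higher. The feedback genes Spry2, Spry4, Etv4, Etv5 and Dusp4 were not. Of the 3 FGF receptors tested 2 fell and Fgfr1 was not called. Fgfr2, whose epithelial form binds Fgf7 and Fgf10, went from 165, 220 and 179 CPM to between 16.3 and 81.7 CPM (median 22.2; -2.54 ± 0.44, adjusted p = 0.000591). Fgfr3 went from 36.2, 35.9 and 31.0 CPM to between 3.63 and 12.5 CPM (median 7.43; -2.15 ± 0.39, adjusted p = 0.000848). Neither receptor overlapped between groups. Dusp6, a phosphatase that switches ERK off and is induced by it, rose from 17.3, 14.8 and 31.0 CPM to between 60.1 and 671 CPM (median 289; 3.84 ± 0.77, adjusted p = 0.00181). Fgfbp1, which frees FGFs from the matrix, rose from 178, 188 and 178 CPM to between 284 and 954 CPM (median 596; 1.72 ± 0.43, adjusted p = 0.00852). Phlda1 and Ier3, early targets of growth factors, rose by 4.56 and 4.33 (log2). Ligands of the EGF receptor rose with them: Hbegf was at 23.4 to 134 CPM (median 36.2) against 3.15, 3.17 and 1.41 CPM (4.40 ± 0.73, adjusted p = 0.000395). Tgfa rose by 4.28 and Areg by 3.98, both from at most 1.57 CPM in the epidermis. Spry1, a feedback inhibitor, was called against most of the list (-1.33, adjusted p = 0.0253) and missed the threshold when epidermis replicate 2 or 3 was left out (adjusted p = 0.139 and 0.060).

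Forskolin raises cyclic AMP, whose targets were called higher in 4 and lower in 1 of 18 genes (median 0.47). Over all genes tested 12.2% were called higher and 9.53% lower. With the 2 groups fitted alone, 11 genes of the list were tested, 3 higher and 1 lower. In that fit 781 of all 7341 genes were higher and 596 lower. So few calls do not settle whether the list stands apart. Prkar2b, a regulatory subunit of protein kinase A, rose from 0, 2.11 and 0 CPM to between 21.2 and 103 CPM (median 27.3; 5.39 ± 0.86, adjusted p = 0.000279). Gem, a small GTPase induced by cyclic AMP, was the one called lower, from 29.9, 23.2 and 36.6 CPM to between 0 and 7.63 CPM (-4.63 ± 0.84, adjusted p = 0.000883). The calls of Prkar2b, Gem and Areg held; 2 genes were called higher without epidermis replicate 1. Of 15 Notch genes only Jag1, a ligand, was called (1.44, adjusted p = 0.0464), and it lost its call without late replicate 2, 3, 5 or 6 or any 1 of the epidermis libraries (adjusted p = 0.056 to 0.169). Notch2, a receptor, had an interval from -1.05 to 0.74.

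Wnt and BMP genes moved in both directions, 6 of 32 higher and 4 lower (median -0.29), and 6 calls held. In late replicates 1 and 2 alone the counts were 6 higher and 8 lower, and in replicates 4 and 5 alone 2 higher and 5 lower. Wnt3, a Wnt ligand, fell from 94.4, 72.9 and 91.6 CPM to a single count, 1.13 CPM, in late replicate 4 and none in the other late libraries (adjusted p = 3.14e-07). Wnt5a, a ligand of the noncanonical branch, rose from 7.86, 11.6 and 7.05 CPM to between 37.4 and 185 CPM (median 131; 3.70 ± 0.65, adjusted p = 0.000647). Bmp4, a BMP ligand, fell from 42.5, 75.0 and 47.9 CPM to between 0 and 7.23 CPM (median 0.697; -5.19 ± 0.65, adjusted p = 3.99e-05). Sostdc1, an inhibitor of both pathways, fell from 175, 161 and 292 CPM to between 9.84 and 72.1 CPM (median 22.2; -2.86 ± 0.52, adjusted p = 0.000933). The BMP targets Id2 and Id3 parted: Id3 fell by 1.54 ± 0.34 (log2, adjusted p = 0.00348) and Id2 rose by 1.87 ± 0.48 (adjusted p = 0.00945), with late replicate 4 inside the epidermis range for Id2. Higher calls numbered 3 without late replicate 3 or without epidermis replicate 1 or 3.

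The circadian clock is a loop in which Clock and Arntl drive Per, Cry and Rev-erb repressors and a set of output factors. Of 16 clock genes tested, 6 fell and 3 rose (median -1.01), and 8 of these calls held. Those that fell included repressors and output factors. Per3 fell from 131, 112 and 87.4 CPM to between 5.67 and 25.3 CPM (median 11.6; -3.16 ± 0.36, adjusted p = 1.23e-05). Per2 fell from 56.6, 61.3 and 49.3 CPM to between 0 and 25.0 CPM (median 2.17; -3.31 ± 0.80, adjusted p = 0.00753). Cry2 fell by 3.00 ± 0.52 on the log2 scale (adjusted p = 0.000616). Tef and Hlf, output factors of the PAR bZIP family, fell with them. Hlf went from 255, 164 and 202 CPM to between 11.7 and 46.8 CPM (median 16.7; -3.39 ± 0.41, adjusted p = 1.91e-05), and Tef from 368, 387 and 255 CPM to between 24.3 and 83.8 CPM (median 53.6; -2.67 ± 0.35, adjusted p = 5.13e-05). The 3 that rose, Nfil3, Bhlhe40 and Bhlhe41, are repressors of clock outputs. Nfil3, which competes with Hlf and Tef for their sites, rose from 0, 2.11 and 1.41 CPM to between 3.90 and 27.3 CPM (median 13.9; 3.57 ± 0.70, adjusted p = 0.00153). Bhlhe41 was at 36.0 to 166 CPM in 5 late libraries and at 1.13 CPM in late replicate 4, against 1.57, 12.7 and 5.64 CPM (3.77 ± 0.94, adjusted p = 0.00826). Bhlhe40 lost its call without epidermis replicate 2 (adjusted p = 0.051). Clock itself had an interval from -0.52 to 0.98. The labels give no hour of collection, so the phase of the tissue clock at collection is unknown.

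Keratins of stressed and simple epithelia were higher: 7 of 10 tested rose and 1 fell, with a median of 4.00 (3.72 with genes at 0 held at their bound), and 3 calls held. Without epidermis replicate 1, 2 or 3 the higher calls were 2, 2 and 4, and with late replicates 1 and 2 alone 2 were higher and 1 lower. Krt6a, a keratin of wounded skin whose counts may be shared with the close copy Krt6b, rose from 1.57, 7.40 and 125 CPM to between 388 and 7914 CPM (median 3533; 6.31 ± 1.33, adjusted p = 0.00264). Krt17, its companion in wounds and follicles, rose from 170, 159 and 323 CPM to between 642 and 1991 CPM (median 847; 2.25 ± 0.49, adjusted p = 0.00318). Krt79, a keratin of the sebaceous duct and follicle opening, was the one that fell, from 67.6, 47.6 and 113 CPM to between 2.27 and 13.7 CPM (median 7.31; -3.36 ± 0.46, adjusted p = 7.02e-05).

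Epithelial cytokines and alarmins rose in 16 of 26 genes and fell in 2 (median 4.92, or 3.23 with genes at 0 held at their bound), and 8 calls held; 8, 7 and 9 were called higher without epidermis replicate 1, 2 or 3. S100a9, a subunit of the alarmin calprotectin, rose from 1.57, 0 and 5.64 CPM to between 11.7 and 2392 CPM (median 1213; 8.99 ± 1.72, adjusted p = 0.00129), and its partner S100a8 rose likewise (9.14 ± 1.84), with late replicate 2 at 1.95 CPM inside the epidermis range. Il1a, an interleukin stored in keratinocytes, rose from 0, 1.06 and 0 CPM to between 21.5 and 196 CPM (median 67.0; 7.31 ± 1.19, adjusted p = 0.000354). Ccl2, which draws monocytes, rose from 17.3, 4.23 and 21.1 CPM to between 56.5 and 1249 CPM (median 198; 4.73 ± 0.95, adjusted p = 0.00234). Ptges, which makes prostaglandin E2, rose by 2.69 ± 0.53 (adjusted p = 0.00172). Chemokines that resting epidermis makes went the other way. Cxcl14 fell from 694, 673 and 275 CPM to between 54.4 and 130 CPM (median 77.3; -2.64 ± 0.48, adjusted p = 0.000821). Ccl27a, which homes T cells to skin, had 15.7, 10.6 and 4.23 CPM in the epidermis and a single count in the late libraries; without epidermis replicate 1 or 2 it fell under the filter on low counts and was not tested.

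Genes of matrix, migration and wound proteolysis were called higher in 8 and lower in 2 of 26 (median 1.29), and 8 calls held. Pthlh, a hormone-like peptide of keratinocytes, rose from 6.29, 1.06 and 5.64 CPM to between 46.5 and 429 CPM (median 320; 6.13 ± 0.97, adjusted p = 0.000276). Anxa3, a membrane-binding annexin, rose from 0, 1.06 and 0 CPM to between 18.1 and 133 CPM (median 83.4; 7.32 ± 0.89, adjusted p = 2.26e-05). Cd44, the hyaluronan receptor, rose from 197, 135 and 189 CPM to between 445 and 904 CPM (median 591; 1.81 ± 0.35, adjusted p = 0.00129). Lgals1, a galectin, rose by 5.82 ± 1.10 (adjusted p = 0.00123). The pair that fell were Serpinb2, an inhibitor of plasminogen activators, from 120, 118 and 88.8 CPM to between 0 and 30.6 CPM (-2.77 ± 0.60, adjusted p = 0.00304), and Tgfbi, a matrix protein, from 231, 346 and 300 CPM to between 27.5 and 91.6 CPM (-2.35 ± 0.44, adjusted p = 0.00123).

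**Figure D4:**
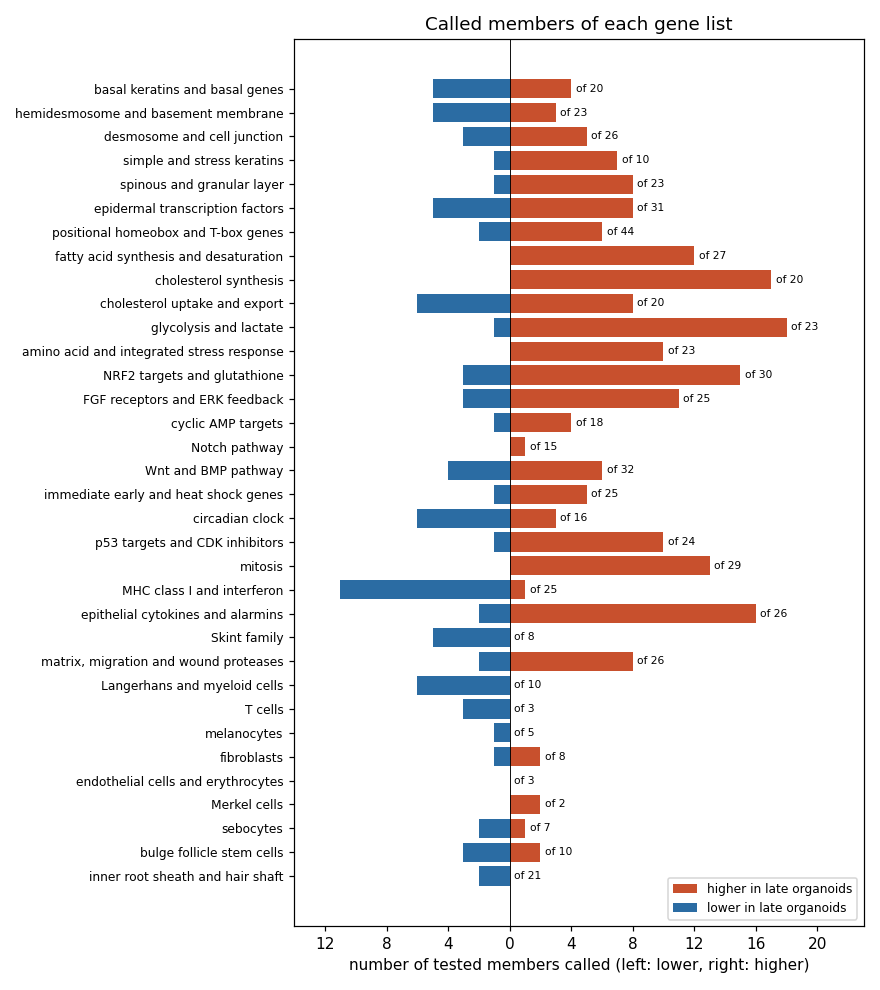
Number of tested members of each list called higher (orange, to the right) and lower (blue, to the left) in late organoids, with the number tested beside each bar. Cholesterol synthesis has 17 of 20 called higher, glycolysis 18 of 23, and MHC class I and interferon 11 of 25 called lower.

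The class I antigen presentation and interferon genes fell in 11 of 25 tested and rose in 1 (median -1.43), and 7 of the lower calls held. These genes load peptides onto MHC class I, in which B2m is the invariant chain, and interferons raise them through factors that bind repeated GAAA elements. The promoter of B2m is shown because it holds such a pair, GAAANNGAAA, in capitals: the 250 bases before its start on the plus strand, chr2:122147437-122147686, GRCm38.p6, RefSeq.
B2m: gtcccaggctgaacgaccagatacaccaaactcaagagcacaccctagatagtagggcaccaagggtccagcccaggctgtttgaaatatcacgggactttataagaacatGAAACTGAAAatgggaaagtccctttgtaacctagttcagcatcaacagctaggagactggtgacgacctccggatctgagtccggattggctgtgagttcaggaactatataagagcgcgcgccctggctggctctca
This motif, on either strand, stood in 10 of the 31 genes of the list with a promoter (32.3%), in 3.46% of all 27025 genes and in 2.90% of tested genes. Those 10 were B2m, H2-T22, H2-T23, Stat2, Ifit1, Ifit3, Isg15, Bst2, Gbp2 and Rsad2. Only B2m and Gbp2 of them were called lower, and the others were not called or not tested. Whether the motif goes with the fall of genes in the list was not tested. B2m itself fell from 1198, 1316 and 1360 CPM to between 47.6 and 181 CPM (median 110; -3.60 ± 0.35, adjusted p = 2.54e-06). H2-K1, a heavy chain that shares sequence with other H2 genes, fell from 189, 237 and 142 CPM to between 15.9 and 56.4 CPM (median 33.8; -2.47 ± 0.33, adjusted p = 6.12e-05). Tap1, the peptide transporter, fell from 134, 104 and 98.6 CPM to between 4.54 and 13.5 CPM (-3.73 ± 0.35, adjusted p = 1.62e-06). Groups did not overlap for any of these 3. Nlrc5, the activator of the class I genes, had 73.9, 44.4 and 46.5 CPM in the epidermis and a single count in the late libraries (adjusted p = 4.94e-06). Psmb8 and Psmb9, subunits of the immunoproteasome, fell by 2.60 and 3.73 on the log2 scale, and Irf9, a component of the interferon-activated complex, by 1.72. Ifitm3, an interferon-induced membrane protein, was called the other way, at 222 to 2536 CPM (median 968) against 170, 193 and 194 CPM. Its 3 highest values were in late replicates 1, 2 and 3, and its call (2.60, adjusted p = 0.0171) was lost without any 1 of the epidermis libraries (adjusted p = 0.063 to 0.074). Langerhans and T cells of the sorted epidermis express these genes too, and the part of these cells in the difference was not tested.

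Skint genes, a rodent family made by keratinocytes that shapes the epidermal gamma delta T cells, fell in 5 of 8 tested and rose in none (median -4.11); 4 calls held. Skint10 had 70.8, 75.0 and 43.7 CPM in the epidermis and counts only in late replicate 4, at 7.94 CPM (-5.72 ± 0.92, adjusted p = 0.000297). Skint9 showed the same pattern at higher values, with 186, 185 and 123 CPM in the epidermis, 49.9 CPM in late replicate 4 and 0 in the other late libraries. Skint11 was at 0 in all 6. Among markers of immune cells, 6 of 10 Langerhans and myeloid genes fell and none rose, with 5 calls held. Cd74, the invariant chain of MHC class II, fell from 34.6, 26.4 and 43.7 CPM to 1.30 CPM in late replicate 3 and 0 in the other 5 (-5.78 ± 0.66, adjusted p = 1.21e-05). All 3 tested T cell genes fell, and the call of Thy1, which mouse epidermal T cells carry, held (20.4, 47.6 and 88.8 CPM against 2.27 CPM in late replicate 4 and 0 elsewhere); 1 was called without epidermis replicate 1 or 2.

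Glycolysis genes were mostly higher. Of 23 genes tested 18 rose and 1 fell (median 2.96), and 15 calls held. Slc2a1, the glucose carrier at the head, rose from 26.7, 31.7 and 24.0 CPM to between 62.4 and 310 CPM (median 196; 2.79 ± 0.55, adjusted p = 0.00172). Hk2, which traps glucose in the cell, rose from 3.15, 1.06 and 9.86 CPM to between 37.4 and 85.8 CPM (median 76.7; 3.94 ± 0.51, adjusted p = 3.73e-05). Pgk1, the first enzyme to yield ATP, rose from 157, 143 and 152 CPM to between 832 and 5338 CPM (median 3014; 4.40 ± 0.54, adjusted p = 2.35e-05). Pkm, the pyruvate kinase at the end, rose from 601, 417 and 571 CPM to between 2927 and 12926 CPM (median 9232; 4.11 ± 0.55, adjusted p = 5.82e-05). The lactate dehydrogenase chains parted, Ldha rising by 3.26 ± 0.46 (adjusted p = 9.82e-05) and Ldhb called lower (-1.91, adjusted p = 0.0265). The call of Ldhb did not survive the loss of late replicate 3 (adjusted p = 0.050) or of epidermis replicate 1 or 3 (0.072 and 0.122). The list summed to 1763 to 2202 CPM in the epidermis, to 6176 CPM in late replicate 4 and to 18164 to 31833 CPM in the other 5 late libraries, so its lowest late library still lay above the epidermis. By source table, 20 genes rose with late replicates 1 and 2 alone and 18 with replicates 4 and 5 alone, and none fell in either.

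The genes of amino acid supply and the integrated stress response rose in 10 of 23 and fell in none (median 1.92); 5 calls held, and 6 genes were called without epidermis replicate 2. Asns, asparagine synthetase, was at 20.2 to 82.4 CPM (median 33.5) against 6.29, 9.51 and 12.7 CPM (2.09 ± 0.48, adjusted p = 0.00507). Mthfd2, of mitochondrial folate metabolism, was at 7.23 to 23.3 CPM (median 14.1) against 1.57, 1.06 and 1.41 CPM (3.41 ± 0.68, adjusted p = 0.00177). Ddit4, an inhibitor of mTORC1, rose by 3.64 ± 0.82 (adjusted p = 0.00437). Targets of NRF2, the factor of the oxidative stress response, and glutathione enzymes rose in 15 of 30 and fell in 3 (median 1.60), with 10 calls held. Gsto1, a glutathione transferase of the omega class, rose from 140, 162 and 210 CPM to between 591 and 6978 CPM (median 2409; 4.09 ± 0.72, adjusted p = 0.000648). Hmox1, which breaks down haem, rose from 1.57, 0 and 1.41 CPM to between 13.0 and 151 CPM (median 70.0; 6.35 ± 1.24, adjusted p = 0.00153). The 3 that fell were all glutathione transferases: Mgst3 fell from 50.3, 62.3 and 78.9 CPM to between 0 and 8.76 CPM (-3.42 ± 0.51, adjusted p = 0.000172), and Gstm1 and Gstm5 were called lower (-1.89 and -1.28) but not without epidermis replicate 3 (adjusted p = 0.064 and 0.072).

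Mitotic genes were called higher in 13 of 29 and lower in none (median 2.21), but only the calls of Ube2c and Plk1 held, and 2, 2 and 6 were called without epidermis replicate 1, 2 or 3. The list summed to 7281 and 5384 CPM in late replicates 1 and 2, to 766 to 1606 CPM in the other 4 and to 436 to 717 CPM in the epidermis. With late replicates 1 and 2 alone 23 genes rose, with replicates 4 and 5 alone 1 did, and without replicates 1 and 2 the count was 5. Plk1, a kinase of mitotic entry, was at 191 and 144 CPM in late replicates 1 and 2 and at 20.4 to 51.6 CPM in the other 4, against 4.72, 8.45 and 5.64 CPM (3.58 ± 0.89, adjusted p = 0.0083). Ube2c, of the complex that ends mitosis, was at 53.3 to 327 CPM (median 119) against 4.72, 11.6 and 15.5 CPM (3.78 ± 0.74, adjusted p = 0.00159). Mki67, the usual marker of cycling cells, was not called (0.50, interval -0.97 to 1.97). Inhibitors of the cell cycle and p53 targets rose in 10 of 24 and fell in 1 (median 0.89), with 2 calls held and 6, 2 and 6 called higher without epidermis replicate 1, 2 or 3. These 2 lie side by side in the genome: Cdkn2a was at 5.85 to 30.2 CPM (median 18.1) with none in the epidermis, at least 13.8-fold higher (adjusted p = 0.000486), and Cdkn2b was at 23.4 to 137 CPM (median 75.1) against 3.15, 8.45 and 2.82 CPM (3.94 ± 0.61, adjusted p = 0.00021). Trp53inp1 was called lower (-0.95) and was no longer called when epidermis replicate 1 or 2 was left out (adjusted p = 0.141 and 0.076). Immediate early and heat shock genes, which rise when tissue is dissociated, were called higher in 5 and lower in 1 of 25 (median 0.54). Calls in either direction were thus near the 21.8% over all genes tested. Only the call of Ier3 held, and higher calls were 2, 3 and 1 without epidermis replicate 1, 2 or 3. Egr2, a growth factor response gene, was the one called lower (-2.32, adjusted p = 0.0186; 0.155 without epidermis replicate 3).

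The layer genes gave the widest spread among the late libraries. The 10 most variable genes of at least median level were Krt4, Lce3e, Krt1, Gm94, Klk14, Klk6, Asprv1, Rptn, Lce1f and Krt10, with SDs of 4.71 to 5.45 in log2 CPM. Most are keratins, proteases or envelope proteins of the suprabasal layers. Summed over the list of spinous and granular genes, late replicates 1 and 2 stood at 1044 and 1098 CPM, replicate 3 at 6014 CPM and replicates 4, 5 and 6 at 44937, 25185 and 40728 CPM, against 6247 to 7467 CPM in the epidermis. The epidermis thus lay between the late libraries. It was sorted for Itga6 and Sca1, while the organoids were bulk cells. The part of this sorting in the levels of layer genes was not tested. Krt10, the keratin of the spinous layer, was at 10.1, 1.95 and 21.2 CPM in late replicates 1 to 3 and at 5151, 927 and 5404 CPM in replicates 4 to 6, against 1010, 1331 and 1157 CPM. It was not called (interval -2.25 to 3.68). Krt4, a keratin of mouth and oesophagus, reached 33937 CPM in late replicate 4 and lay between 0 and 294 CPM in the other 5; the epidermis had 4.72, 1.06 and 1.41 CPM, and the call (adjusted p = 0.0318) ended when any 1 of them was left out (adjusted p = 0.099 to 0.120). Klk14, a protease of desquamation, had no count in the epidermis and 0 to 5593 CPM (median 732) in late organoids.

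Of the 23 spinous and granular genes tested, 8 rose and 1 fell (median 1.70). The 2 calls that held were Ivl and Tgm1. Without epidermis replicate 1, 2 or 3 the higher calls were 2, and without late replicate 4 or 6 they were 5. Ivl, involucrin, rose from 4.72, 4.23 and 4.23 CPM to between 11.6 and 106 CPM (median 43.7; 3.63 ± 0.81, adjusted p = 0.00388). Tgm1, the transglutaminase that crosslinks the envelope, had no count in the epidermis and 0 to 58.0 CPM (median 31.5) in late organoids, at least 21.5-fold higher (adjusted p = 0.0062). The direction of the list followed the source table: late replicates 1 and 2 alone gave no higher and 17 lower calls, replicates 4 and 5 alone gave 17 higher and none lower, and the 4 libraries without replicates 1 and 2 gave 13 higher and 1 lower. Lor, loricrin, was at 5.85 to 14.2 CPM in late replicates 1 to 3 and at 904 to 5441 CPM in replicates 4 to 6, against 59.8, 42.3 and 49.3 CPM. Its call (adjusted p = 0.0499) was lost without late replicate 4, 5 or 6 (adjusted p = 0.075, 0.061 and 0.069) or any 1 of the epidermis libraries (0.140 to 0.158), and late replicates 1 and 2 alone lay lower than the epidermis (-2.92, adjusted p = 0.00604). Krt77, a keratin of sweat ducts and interfollicular epidermis, was the one called lower, with 15.7, 6.34 and 2.82 CPM in the epidermis and none in late organoids; without late replicate 3 or epidermis replicate 1 or 2 it was not tested.

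**Figure D5:**
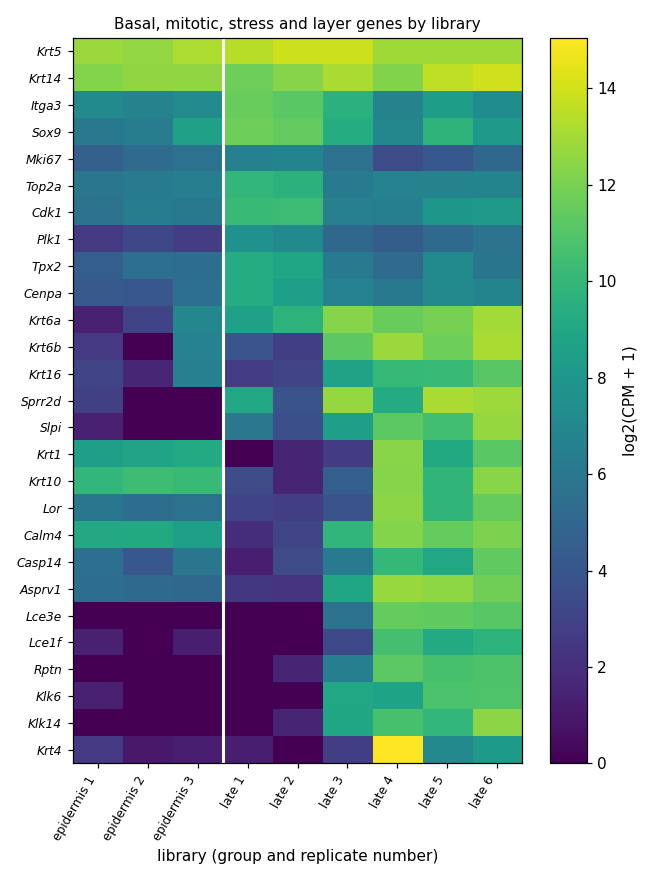
Heat map of log2(CPM + 1) for 27 basal, mitotic, stress and layer genes, from top to bottom, in the 3 epidermis and 6 late libraries. Late replicates 1 and 2 are brightest for mitotic genes such as Cdk1 and dark for Krt1, Krt10 and Lor, which are bright in late replicates 4 to 6.

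The 4 marker genes were also read in the other groups, with all 32 libraries scaled together and no test. These groups differ in medium. No source table held late organoids with any other group, while the 5 unpassaged libraries shared a table with 2 early ones. Apoe had medians of 790 CPM in 5 unpassaged organoid libraries, 273 CPM in 12 early ones (passages 7 to 12) and 9.17 CPM in the 6 late ones, against 10671 CPM in the epidermis, 595 CPM in anagen follicles and 3156 CPM in mixed follicles. Pitx1 ran from 4.78 to 14.9 CPM in unpassaged, from 41.7 to 415 CPM in early and from 125 to 804 CPM in late organoids, and was at 0 in each of the 9 tissue libraries. The values of Apoe and Pitx1 in late organoids thus lay beyond those in unpassaged organoids with no overlap. Krt15 was low at every organoid stage, with at most 199 CPM unpassaged, 407 CPM early and 632 CPM late, against 7532 to 8277 CPM in the epidermis. Follicles were also far below the epidermis for Krt15, at 21.5 to 181 CPM (anagen) and 507 to 1213 CPM (mixed). Scd2 was high from the start, at 719 to 1453 CPM unpassaged, 131 to 635 CPM early and 475 to 814 CPM late. In follicles it lay at 143 to 434 CPM, nearer to the organoids than to the 5.82 to 14.4 CPM of the epidermis.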

How the data were processed

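RNA was taken from cells collected in Trizol and made into CEL-seq2 libraries, which count the 3′ end of transcripts, per the labels' protocols. Per the submitters' processing notes the authors aligned with BWA 0.6.2-r126 and used the build mm10; how genes were counted, with which annotation, and whether molecular identifiers were collapsed is not given in the sources. Each deposited file holds the raw counts per gene of 1 library, with no normalization; no value departed from a whole number of at least 0. A gene missing from a file was taken as 0, and 14 spike-in names were left out.

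The fit was made with edgeR 4.0.16 (R 4.3.3) after a filterByExpr filter (minimum count 10, minimum total 15) and scaling by TMM, using glmQLFit and glmQLFTest, on 17 libraries in 5 groups (epidermis, anagen and mixed follicles, early and late Fgf1 organoids), which share 1 estimate of the spread, with Benjamini-Hochberg adjustment over all genes tested. The contrast is late organoids minus epidermis. Levels are TMM-scaled CPM; total counts of 412582 to 3127190 per library limit their precision. Where a group had no count, the fold is a lower bound from the other group's mean CPM over 3 counts in the whole group (1.309 CPM in epidermis, 0.393 CPM in late organoids), which covers counting error only; without 1 epidermis library the level of 3 counts is 1.81 to 2.23 CPM. The script was tested on simulated data. Some genes of the lists are counted with them but not reported singly here.

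The members and gene lists were chosen with earlier results of these data known. Genes were named by rule: the 15 largest changes in each direction among called genes of at least median level without overlap (predicted genes left out), list members with their list's counts, members called against their list, and the 10 most variable genes. Promoter windows came from RefSeq (GRCm38.p6), the 250 bases before each start; a gene counted once if any of its windows held the motif. In all 12 motifs were searched on both strands in 8 lists, chosen after values were seen: CCAAT for NF-Y, TCACNCCAC for SREBP with its looser form TCACNCCNC and a stricter form, TGACNNNGC for NRF2, the E-box CACGTG for Clock, TTATGTAA for Hlf and Tef, TGACGTCA for CREB, TGAGTCA for AP-1, GAAANNGAAA for interferon factors, and the nuclear receptor repeat DR4 whole and without its first base. Alternatives were other scalings, filters, tools (DESeq2 1.42.0, limma-voom 3.58.1), fits on fewer libraries, thinning to equal total counts and a replicate block.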

Additional observations from a re-analysis of the deposited data

Results flagged for a closer look

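Among the 6 late libraries, 16 of 167 named genes with at least 30 late counts had 1 library far from the rest by Dixon's test on log2 CPM; chance flags about 1 in 20 groups. Late replicate 4 was the library that stood apart in 11 of them.

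It was the lowest for Pkm at 2927 CPM (next 7828), Pgk1 at 832 CPM (next 2997), Pthlh at 46.5 CPM (next 246), Fhl2 at 35.2 CPM (next 83.4), Tgfa at 2.27 CPM (next 9.84), Bhlhe41 at 1.13 CPM (next 36.0), Hoxc5 at 13.6 CPM (next 52.6), Hoxc8 at 14.7 CPM (next 85.8) and Ly6a at 81.7 CPM (next 439). It was the only late library with counts of Skint9, at 49.9 CPM, and the highest for Dcn at 399 CPM (next 5.78). Late replicate 1 was the highest for Dsg2 at 57.8 CPM (next 18.1) and the lowest for Barx2 at 30.4 CPM (next 74.1) and Dhcr7 at 10.1 CPM (next 23.4). Late replicate 2 was the highest for Hlf at 46.8 CPM (next 18.1) and for Fgfr1 at 42.9 CPM (next 5.78). Leaving out late replicate 4 raised the number of called genes from 2360 to 2548.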

How the results depend on the processing

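The count of called genes (2360) stayed within 1.5 times under RLE (2355) or upper quartile scaling (2370, with 50.1% of calls higher against 56.2%), no filter (2528), a minimum count of 30 (1962), DESeq2 (2627) and limma-voom (2099). Limma-voom turned the balance of directions, with 944 higher and 1155 lower against 1327 and 1033, and ended 30 calls among the 203 named genes (adjusted p = 0.0501 to 0.612), all of genes called higher: Ltf, S100a9, Fdps, Id2, Slpi, Sox9, Itgb1, Sprr2h, Psca, Acss2, Plk1, Ppbp, Tm7sf2, Sprr2f, Dhcr7, Jag1, S100a8, Cdk1, Itga3, Hoxc8, Krt6b, Bhlhe41, Klk14, Rptn, Klk6, Lce3e, Asprv1, Lce1f, Krt4 and Lor. It was 1078 (605 higher, 473 lower) for a change of more than 2-fold, 1377 (781 and 596) with the 2 groups alone, and 1635 with 665 lower after thinning. Leaving out 1 library gave 1296 to 2548 calls, 660 to 1437 higher and 636 to 1111 lower; the lowest values came without epidermis replicate 2, the highest without late replicate 4. Late replicates 1 and 2 alone gave 2489 calls, replicates 4 and 5 alone 1884, and the late libraries without replicates 1 and 2, a choice made after seeing the data, 2747. The replicate number as a block gave 2501 calls. Same-numbered libraries deviated from their group means with correlations of -0.04, 0.01 and -0.03. These values show no pairing by number, but such a check between tissue and organoids could miss a shared animal or batch. With that block Krt10 (-6.71), Lor (-2.46), Krt1 (-7.22) and Gm94 (-4.04) turned negative, as did, with late replicates 1 and 2 alone, Krt10 (-7.50), Lor (-2.92), Krt1 (-9.00), Gm94 (-11.96), Asprv1 (-3.14), Klk6 (-2.60), Krt6b (-1.76), Lce1f (-3.48) and Hmgcs1 (-1.92). The first compares late replicates 1 to 3 with the epidermis and the second replicates 1 and 2, the late libraries in which these genes are lowest. Of the 10 most variable genes, 8 were among the 10 with a prior count of 0.5 and 7 with one of 10. The depth of the shallowest libraries limits genes of few counts: 3 counts over the epidermis correspond to 1.31 CPM.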
